A study of Homo sapiens with 12 samples.

Results

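The 9 genes described here encode the plasminogen activators, their receptor and an activator inhibitor (PLAU, PLAT, PLAUR and SERPINB2), the secreted matrix metalloproteases MMP1, MMP3 and MMP10, and the metalloprotease inhibitors TIMP1 and TIMP3. They were taken by gene symbol from a table of 19973 genes, and all 9 were found, each on 1 line. The RNA-seq data come from H460 and A549, both established human non-small cell lung carcinoma (NSCLC) lines labelled as wild type. The authors state that both lines carry homozygous inactivating mutations of KEAP1. Each line was either left non-treated (control) or treated with Isovalerylspiramycin I (ISP-I), a spiramycin-type macrolide, at 10 µM for 48 h, with 3 libraries in each of the 4 groups. The labels call the controls non-treated, and whether they received the solvent is not given there.

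Plasmin is an extracellular protease that is cut from plasminogen by urokinase (PLAU) or by tissue plasminogen activator (PLAT). PLAUR holds urokinase at the cell surface, and serpins, among them SERPINB2, block both activators. Plasmin and stromelysins (MMP3, MMP10) cut the inactive forms of other matrix metalloproteases, among them the collagenase MMP1, and TIMP proteins inhibit the active enzymes. In carcinoma cells these genes are known as part of invasion, wound-type responses and matrix turnover, and several of them are inducible.

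The libraries held 14225849 to 17874422 reads on genes. Values are FPKM, reads scaled by the gene's length and by the library's total, so levels can be compared between genes. Libraries of a group are numbered only by their place in the table. Nothing in the labels says that they came from separate cultures, so p-values measure the spread between these libraries, which may be technical. In 2 groups 1 library stood apart from the others of its group over all genes, A549 control library 3 and H460 ISP-I library 3, with 28.0 to 32.5 and 58.1 to 98.7 times the variance of read sampling against 3.38 and 22.9 for the other pair. KRT8, KRT18 and KRT19 each had a mean of 45.6 FPKM or more in all 4 groups, whereas the epithelial markers EPCAM and CDH1 were at 0.0473 and 0 FPKM in H460 controls. Of 17 markers of fibroblasts, leukocytes and endothelium, the highest group means were COL3A1 at 8.60 and CD14 at 5.92 FPKM, both in H460 controls. PTPRC, CD68 and PECAM1 did not exceed 0.0201 FPKM in any group mean. Summed over their list, fibroblast markers were at 9.96 to 11.1 FPKM in H460 controls, 5.06 to 5.89 with ISP-I, 0.912 to 1.22 in A549 controls and 1.11 to 1.32 with ISP-I. Leukocyte and macrophage markers were at 5.22 to 6.47, 1.34 to 2.50, 0.830 to 1.37 and 1.04 to 1.27 FPKM in the same order, and endothelial markers at or under 0.389 FPKM. COL3A1 and CD14 carried the sums in H460 controls. PDGFRB rose in H460 from 0.543 to 2.40 FPKM (limma adjusted p = 1.22e-05), and with ISP-I it was above COL3A1, at 2.25 FPKM. In A549 PDGFRB rose from 0.0194 to 0.278 FPKM, and CD163 rose from 0 to 0.705 FPKM. The part of these markers in the results was not tested.

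ISP-I was followed by more RNA of the receptor and of the 3 metalloproteases in both lines, and by less PLAT. Plain ratios of mean FPKM for PLAUR were 1.81 in H460 and 1.95 in A549, and for PLAT 0.262 and 0.527. SERPINB2 was nearly 3 times its control level in H460, with a ratio of 2.89, and was at or near 0 in A549. The TIMP genes and PLAU passed the test in A549 and not in H460. In such bulk RNA, fewer cells that express a gene and less RNA per cell cannot be told apart. The test was that of limma, run on log2(FPKM + 1) and adjusted by Benjamini-Hochberg over all genes tested, and a fold change on this scale understates the change of genes near or under 1 FPKM. A gene was called at a fold over 2 on that scale and an adjusted p under 0.05, and "rose" or "fell" is written for an adjusted p under 0.05 at any fold.

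In H460 all 9 genes were tested. Of them 5 rose, 1 fell and 3 did not pass, where 27.6% of all genes tested rose and 41.5% fell. The call with a fold over 2 took 2 of them as higher, against 10.5% of all genes, and 0 as lower, against 15.2%. MMP3, called higher here, and MMP10 had control means of 0 and 0.0908 FPKM. They reached the mean of 0.1 FPKM needed for the test only through the treated libraries, so they could enter only as higher. At an unadjusted p under 0.05 limma had 1 gene lower, and limma voom on the recovered reads called 4 higher and 1 lower of 8 tested. The median difference over the genes was 0.36, and over all 13423 genes tested it was -0.15. Scaling by median-of-ratios moved that overall median to 0.01. The estimates of the genes that rose were 0.44 to 1.82 under that scaling, against 0.36 to 1.60, and PLAT was then at -0.82. In A549, 8 genes were tested, and 6 rose and 2 fell, where 30.5% of all genes rose and 27% fell. The call took 2 as higher, against 4.2% of all genes, and 0 as lower, against 3.51%. The genes called, MMP1 and MMP10, and also MMP3, had control means at or under 0.0262 FPKM. They too entered the test only through the treated libraries and could enter only as higher. Here limma had 2 lower at an unadjusted p under 0.05, while voom called 4 higher and 0 lower of 8. The median was 0.64, against 0.02 over 13705 genes. Between the groups of a line, 6 of the 9 genes did not overlap in H460, where 72.7% of all genes tested did not, and 8 did not overlap in A549, where 65.5% did not.

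**Figure D1:**
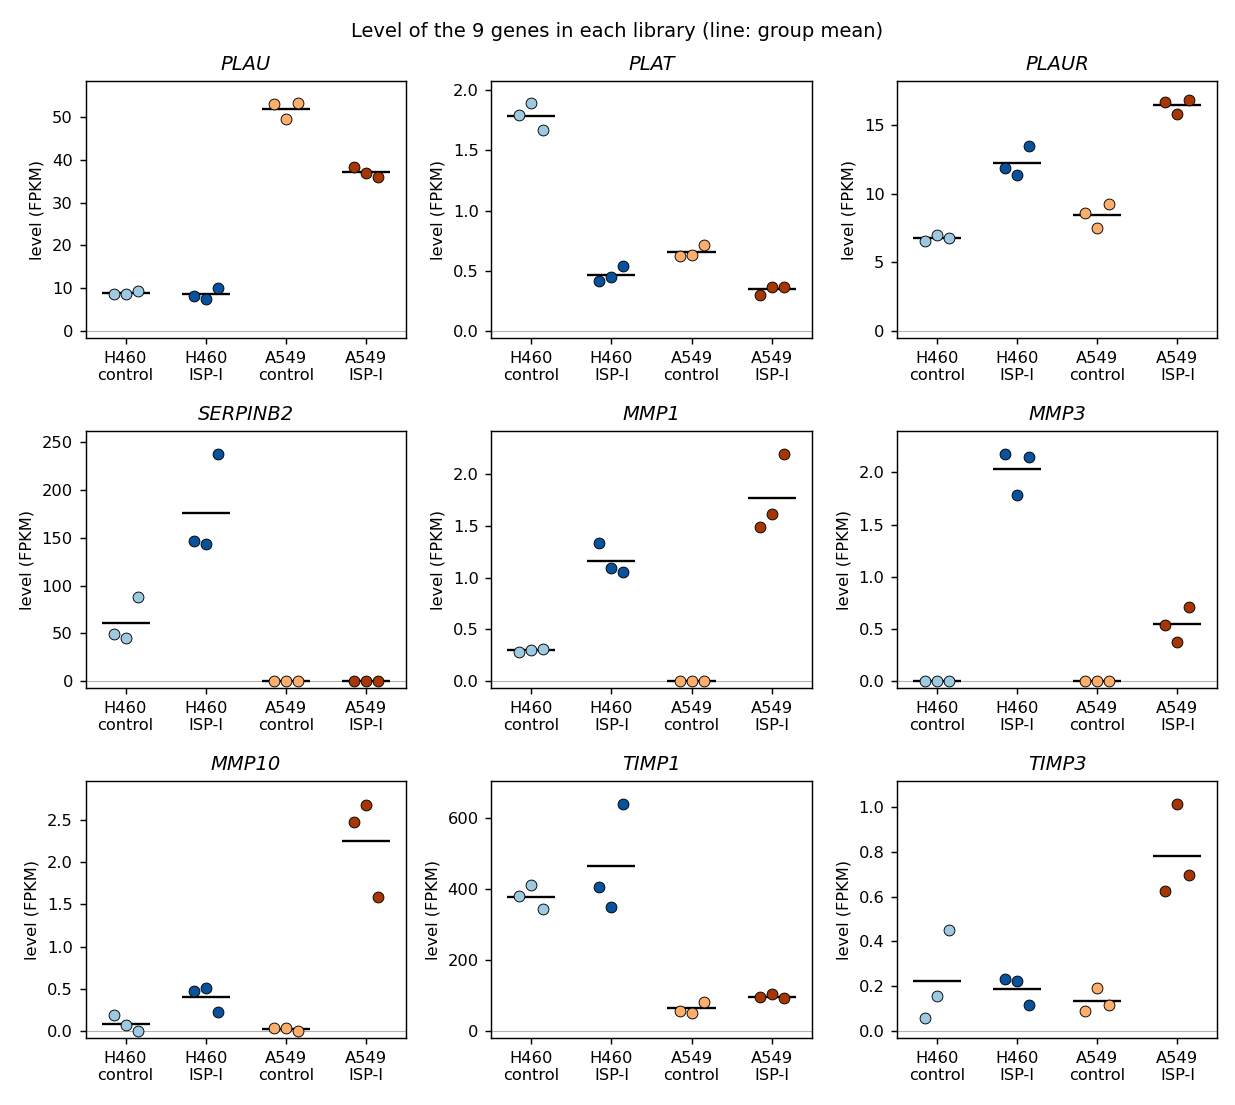
Level of each of the 9 genes in each library, in FPKM on linear axes that include 0, for H460 and A549, control and ISP-I. Each point is 1 library and each bar the mean of 3. SERPINB2 was near 0 in A549, PLAU was higher in A549 and TIMP1 in H460, and MMP1, MMP3 and MMP10 stood at or under 0.306 FPKM in every control library.

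PLAU, which encodes urokinase, lies on chromosome 10 (73909177 to 73917496 in GRCh38, plus strand). In A549 controls it was at 53.0, 49.5 and 53.3 FPKM, and with ISP-I at 38.3, 36.8 and 36.0 FPKM. Every treated A549 library was below every control library. The mean fell from 51.9 ± 2.15 to 37.0 ± 1.18 FPKM (SD, n = 3), a ratio of 0.713, or -0.48 on the log2 scale (SE 0.0642, limma adjusted p = 0.000375). In H460 the controls were at 8.56, 8.68 and 9.24 FPKM and the treated libraries at 8.25, 7.55 and 10.1 FPKM, so that the groups overlapped. The H460 difference was -0.04 (95% CI -0.33 to 0.25, limma adjusted p = 0.81), and its sign turned under other scalings, with 0.22 by median-of-ratios and 0.07 by quantile normalization. The difference between the effects in the lines, H460 minus A549, was 0.44 (SE 0.135, limma adjusted p = 0.0157). Controls differed by -2.43 (H460 against A549, limma adjusted p = 4.31e-08), which is 5.88 times more in A549 as a plain ratio.

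PLAT encodes tissue plasminogen activator, the other enzyme that cuts plasminogen, on chromosome 8 (42174718 to 42207709, minus strand). H460 controls had 1.80, 1.90 and 1.67 FPKM, and treated H460 libraries 0.418, 0.448 and 0.538 FPKM, from 618 and 178 reads in all. The groups did not overlap, and PLAT fell by 0.93 on the log2 scale (SE 0.0828, limma adjusted p = 1.94e-05). In A549 it was at 0.624, 0.630 and 0.715 FPKM in controls and at 0.302, 0.369 and 0.368 FPKM with ISP-I, again without overlap, and fell by 0.30 (SE 0.0592, limma adjusted p = 0.00293). The fall was deeper in H460, with a difference of the effects of -0.63 (SE 0.0850, limma adjusted p = 6.83e-05). PLAT was 2.72 times higher in H460 than in A549 controls, and the treated lines differed by 0.12 (95% CI -0.01 to 0.26, limma adjusted p = 0.0933). This passed under other settings, at 0.24 by median-of-ratios (adjusted p = 0.010), 0.33 by quantile normalization (adjusted p = 0.00208) and 0.75 by voom (adjusted p = 0.0119).

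PLAUR, the membrane-anchored receptor that concentrates urokinase at the cell surface, lies on chromosome 19 (43646095 to 43670547, minus strand). Its level in H460 was 6.53, 6.99 and 6.76 FPKM in controls and 11.9, 11.3 and 13.5 FPKM with ISP-I. In A549 it was 8.58, 7.49 and 9.24 FPKM in controls and 16.7, 15.8 and 16.8 FPKM with ISP-I. Neither line showed an overlap. PLAUR rose by 0.77 in H460 (SE 0.111, limma adjusted p = 0.000324) and by 0.89 in A549 (SE 0.0845, limma adjusted p = 5.79e-05). The effects differed by -0.13 (95% CI -0.40 to 0.15, limma adjusted p = 0.425), a sign that turned to 0.17 with median-of-ratios scaling. The 4 groups ranked A549 with ISP-I, H460 with ISP-I, A549 control and H460 control, each without overlap with the next. The first step depended on the scaling, since the treated lines differed by -0.40 in FPKM (limma adjusted p = 0.00599), but by -0.06 with median-of-ratios (adjusted p = 0.588) and -0.10 with voom (adjusted p = 0.445). For untreated cells the line difference was -0.28 (limma adjusted p = 0.035), and with median-of-ratios scaling its adjusted p was 0.0861. Relative to its ligand, receptor RNA went from 0.767 ± 0.0365 to 1.42 ± 0.0855 FPKM per FPKM of PLAU in H460 and from 0.162 ± 0.0108 to 0.444 ± 0.0209 in A549 (SD, n = 3).

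SERPINB2 encodes plasminogen activator inhibitor type 2, a serpin that is mostly kept inside the cell and that inhibits urokinase and tissue plasminogen activator. The gene is on chromosome 18 (63871692 to 63903888, plus strand). H460 controls were at 49.4, 44.8 and 87.8 FPKM, and treated H460 libraries were at 146.1, 143.4 and 237.1 FPKM. In both groups library 3 was the highest, and the lowest treated library was still above the highest control. SERPINB2 rose from 60.6 ± 23.6 to 175.5 ± 53.4 FPKM (SD, n = 3), or by 1.54 (SE 0.286, limma adjusted p = 0.00138), and by 1.31 when H460 ISP-I library 3 was left out (limma adjusted p = 0.000934). It exceeded 96.6% of all listed genes in H460 controls and 99.2% with ISP-I. A549 controls had 0 reads on SERPINB2, and treated A549 libraries had 0.0733, 0 and 0.0254 FPKM from 4 reads in all, too few for a test within A549. Against a floor of 3 reads over the group, 0.0251 FPKM, H460 controls were at least 2421-fold above A549 controls. The difference of the ISP-I effects was 1.50 on the log2(FPKM + 1) scale (SE 0.324, limma adjusted p = 0.00205). With so few A549 reads the pseudocount sets the A549 effect near 0, and voom on reads gave 0.46 (adjusted p = 0.847), so a difference between the lines in fold was not shown. Per FPKM of PLAU, H460 held 6.81 ± 2.35 FPKM of SERPINB2 in controls and 20.1 ± 3.03 with ISP-I (SD, n = 3). SERPINB10 (63897174 to 63936111) overlaps the end of SERPINB2, and its mean was 0.0333 FPKM in H460 controls and 0.236 FPKM with ISP-I.

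**Figure D2:**
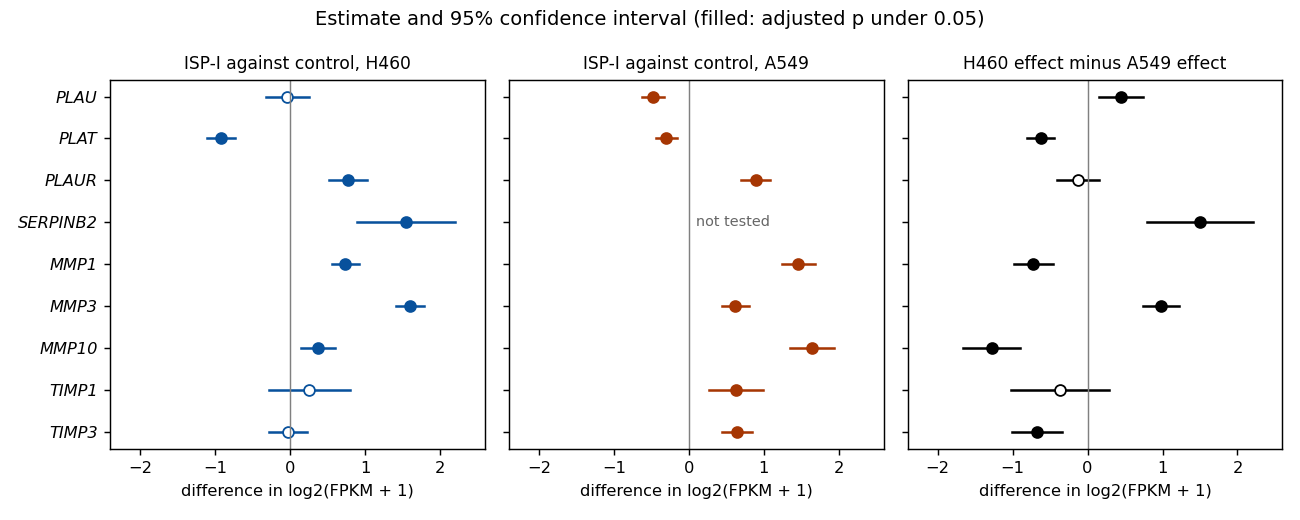
Difference in log2(FPKM + 1) for each gene with its 95% confidence interval, for ISP-I against control in H460 and in A549 and for the H460 effect minus the A549 effect. Filled points have an adjusted p under 0.05. PLAUR lay at 0.77 and 0.89 in the lines, whereas MMP10 lay at 0.36 and 1.65 and MMP3 at 1.60 and 0.62.

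The 3 secreted metalloproteases lie close together on the minus strand of chromosome 11, with MMP10 at 102770502 to 102780628, MMP1 at 102789919 to 102798160 and MMP3 at 102835801 to 102843609. In controls they were all low. In both lines all 3 rose with ISP-I. In treated H460 the highest mean was that of MMP3, above MMP1 and MMP10 in every library, and in treated A549 MMP10 and MMP1 overlapped, with MMP1 the higher of them in library 3 and MMP3 the lowest in every library.

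MMP1, interstitial collagenase, was at 0.282, 0.301 and 0.306 FPKM in H460 controls and at 1.33, 1.10 and 1.06 FPKM with ISP-I, a ratio of 3.93 from 26 and 114 reads. The groups did not overlap and the difference was 0.74 (SE 0.0775, limma adjusted p = 4.92e-05). All 3 A549 control libraries had 0 reads, and the treated ones had 1.50, 1.62 and 2.19 FPKM from 156 reads. Every treated library was thus above 0, at least 50.5-fold higher against the floor of 3 reads over the group. The A549 difference was 1.46 (SE 0.0953, limma adjusted p = 8.80e-06), and the effect was smaller in H460, by -0.72 (SE 0.121, limma adjusted p = 0.000326).

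MMP3, stromelysin-1, which also activates other metalloproteases, had 0 reads in all 6 control libraries. With ISP-I it reached 2.17, 1.78 and 2.14 FPKM in H460, from 186 reads, which was at least 55.9-fold higher than the floor over the control group. In A549 it reached 0.542, 0.378 and 0.715 FPKM, from 45 reads and at least 14.6-fold higher. Treated and control libraries did not overlap in either line. The differences were 1.60 in H460 (SE 0.0806, limma adjusted p = 1.17e-06) and 0.62 in A549 (SE 0.0809, limma adjusted p = 0.000312). On this scale the effect in H460 exceeded that in A549 by 0.98 (SE 0.109, limma adjusted p = 1.47e-05). With 0 reads in all controls, this value is the difference between the treated lines, and both folds are only lower bounds. A difference between the lines in fold was not shown.

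MMP10, stromelysin-2, was at 0.198, 0.0749 and 0 FPKM in H460 controls and at 0.477, 0.512 and 0.230 FPKM with ISP-I. The highest control and the lowest treated library were close together but did not overlap, and the counts were small, at 7 and 36 reads. MMP10 rose by 0.36 in H460 (SE 0.0991, limma adjusted p = 0.0102), and without a filter on low genes its adjusted p was 0.0506. In A549 the controls had 0.0400, 0.0387 and 0 FPKM, from 2 reads in all, and the treated libraries 2.47, 2.68 and 1.59 FPKM from 179 reads. Per library total the reads were 87.0 times higher (95% exact interval 23.7 to 723.7, counting error only). The A549 difference was 1.65 (SE 0.127, limma adjusted p = 1.95e-05), and the effect was smaller in H460 by -1.28 (SE 0.175, limma adjusted p = 7.16e-05).

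MMP3 and MMP10 are close paralogs, and their longest identical run of transcript sequence was 96 bases, against 18 bases between MMP1 and either. How reads that fit both were counted is not given in the sources used here, so small shifts between MMP3 and MMP10 are uncertain. The transcript WTAPP1 overlaps all 3 genes on the opposite strand, was not analysed here, and the strand setting of the counting is not given. Over the 9 metalloproteases of this cluster, 6 were tested in A549 and 3 were called higher, namely MMP1, MMP10 and MMP20, with 0 lower (1 lower at an unadjusted p under 0.05 by limma, 0 called by voom). Of all genes tested in A549, 4.2% were called higher and 3.51% lower. MMP1 and MMP10 are counted above already, and all 3 entered the test only through the treated libraries. MMP20, the tooth-enamel protease enamelysin, was named after its values were seen and went from 0.00888 to 1.29 FPKM (1.18, limma adjusted p = 9.39e-06). MMP7, matrilysin, the one member of the cluster with a high level in A549, fell from 29.7 to 20.9 FPKM (-0.49, limma adjusted p = 0.00253). In H460 5 genes of the cluster were tested, 4 rose, and MMP3 alone was called higher. Of those that rose, MMP3, MMP10 and MMP20 entered only through the treated libraries and could enter only as higher. MMP20 had an H460 control mean of 0.0699 FPKM. Of all genes tested in H460, 27.6% rose and 10.5% were called higher, and MMP1, MMP3 and MMP10 are counted above already.

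TIMP1 encodes a secreted inhibitor of most metalloproteases and lies on chromosome X (47582408 to 47586789, plus strand). It was by far the most abundant of the 9 genes in H460, above 99.7% of all listed genes in both H460 groups. H460 controls were at 379.7, 410.9 and 344.1 FPKM and treated libraries at 405.4, 350.3 and 640.4 FPKM. The groups overlapped, and only library 3 of the treated group stood above the controls. The difference was 0.25 (95% CI -0.29 to 0.79, limma adjusted p = 0.361), and -0.00159 without that library. Voom on reads passed TIMP1 in H460 with 0.54 (adjusted p = 0.0405). A549 controls were at 57.2, 52.3 and 83.1 FPKM, where the high value is the library that stood apart, and treated libraries were at 96.5, 104.3 and 92.6 FPKM. These did not overlap, and TIMP1 rose by 0.63 (SE 0.157, limma adjusted p = 0.00945). The adjusted p was 0.0624 without a filter on low genes, and 1.17e-06 with a difference of 0.83 without A549 control library 3. The effects in the lines differed by -0.37 (95% CI -1.03 to 0.28, limma adjusted p = 0.311). Without H460 ISP-I library 3 that difference was -0.63 (limma adjusted p = 0.0281). TIMP1 lies within the span of SYN1 on the opposite strand, and SYN1 stayed at or under 0.791 FPKM in every library.

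TIMP3, which binds to the matrix and also inhibits ADAM-type proteases, lies on chromosome 22 (32801705 to 32863041, plus strand). In A549 it was at 0.0917, 0.192 and 0.118 FPKM in controls and at 0.626, 1.01 and 0.698 FPKM with ISP-I, from 27 and 162 reads. All treated libraries were above all controls, a ratio of 5.81, and TIMP3 rose by 0.64 (SE 0.0886, limma adjusted p = 0.000416). In H460 the controls spread from 0.0605 and 0.158 to 0.453 FPKM and the treated libraries were at 0.231, 0.222 and 0.117 FPKM, so the controls enclosed the treated group. The H460 difference was -0.03 (95% CI -0.28 to 0.23, limma adjusted p = 0.832), of either sign among the alternatives, and the effect differed between the lines by -0.67 (SE 0.154, limma adjusted p = 0.00294). SYN3, which spans TIMP3 on the opposite strand, did not exceed 0.00626 FPKM.

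Between the untreated lines, 7 of the 9 genes were tested and MMP3 and MMP10 were too low. These comparisons use the same libraries as those of the treatment. SERPINB2 and TIMP1 were called higher in H460, where 5.64% of all genes were, and PLAU was called lower, against 8.78%. SERPINB2 had A549 means of 0 FPKM in controls and 0.0329 FPKM with ISP-I. It entered this test and that of the treated lines only through H460, so it could enter only as higher. TIMP1 differed by 2.57 (limma adjusted p = 3.05e-06), or 5.89 times as a plain ratio. Between the treated lines, SERPINB2 and TIMP1 were again higher in H460, against 7.67% of all genes, and PLAU and MMP10 were lower, against 16%. None of the 9 overlapped there, and 73.8% of all genes tested did not. MMP1 was lower in treated H460 by -0.35 (limma adjusted p = 0.0243), but quantile normalization gave 0.06, and the adjusted p was 0.0657 without a filter, 0.314 by median-of-ratios and 0.391 by voom. Without A549 ISP-I library 3 or H460 ISP-I library 2 it was 0.0697 and 0.0561. In the test of the difference between the effects, MMP10 was called as smaller in H460, where 10.1% of all genes were. SERPINB2 was past the threshold as larger, where 5.93% of all genes were, but it entered this fit only through its level in H460. At an adjusted p under 0.05 and any size, 3 genes were larger, SERPINB2 among them, against 18.6% of all genes, 4 were smaller, against 34.7%, and 2, PLAUR and TIMP1, did not pass.

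Of the 9 genes, 6 had a start site in the RefSeq promoter table (GRCh38.p14), with MMP1, MMP3 and PLAT not among them. The 250 bases before each start were searched on both strands for the AP-1 letters TGANTCA, the TATA letters TATAAA and the ETS letters AGGAAG. The AP-1 letters were in 3 of the 6, MMP10, PLAUR and SERPINB2, and in 6.57% of all 35116 promoters of that table. The next lines give these promoters 5′ to 3′ up to the base before the start, because the genes are those of the 6 with both an AP-1 match and a rise in at least 1 line. Capitals mark the AP-1 match, at -67 to -61 in MMP10, -186 to -180 in PLAUR and -102 to -96 in SERPINB2, counted back from the start site. They cover chr11:102780629-102780878 (minus strand), chr19:43670170-43670419 (minus strand) and chr18:63887455-63887704 (plus strand).
MMP10: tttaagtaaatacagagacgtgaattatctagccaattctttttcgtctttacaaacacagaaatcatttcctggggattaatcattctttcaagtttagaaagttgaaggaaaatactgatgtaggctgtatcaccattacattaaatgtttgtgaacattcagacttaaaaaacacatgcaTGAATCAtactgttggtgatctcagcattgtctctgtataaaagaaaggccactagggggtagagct
PLAUR: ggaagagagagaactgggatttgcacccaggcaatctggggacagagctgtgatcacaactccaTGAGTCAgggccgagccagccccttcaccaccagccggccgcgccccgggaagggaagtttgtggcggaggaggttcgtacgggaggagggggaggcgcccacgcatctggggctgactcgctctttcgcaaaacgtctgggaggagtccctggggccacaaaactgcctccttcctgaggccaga
SERPINB2: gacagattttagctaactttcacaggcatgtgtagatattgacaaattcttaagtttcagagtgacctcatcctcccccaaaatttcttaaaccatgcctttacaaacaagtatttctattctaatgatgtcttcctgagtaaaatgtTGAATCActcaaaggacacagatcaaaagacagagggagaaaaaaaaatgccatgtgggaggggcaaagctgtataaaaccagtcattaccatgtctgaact
TATA letters stood at -31 to -26 in MMP10 and at -30 to -25 in SERPINB2, and in 10.7% of all promoters. The ETS letters were in PLAU, PLAUR, SERPINB2 and TIMP1, a common match held by 28.7% of all promoters. TIMP3, which rose in A549, had none of the 3 motifs in this window, and TIMP1, which also rose there, had no AP-1 match.

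Another 72 genes of the same system in 5 lists gave the surroundings of these changes. In H460, 51 were tested, of which 14 rose and 21 fell. These shares are close to the 27.6% and 41.5% of all genes given above. The call took 4 as higher and 6 as lower, where 10.5% and 15.2% of all genes were called. In A549, 53 were tested, of which 8 rose and 20 fell, where 30.5% and 27% of all genes did. Here 1 was called higher and 4 lower, where 4.2% and 3.51% of all genes were. The 1 called higher was MMP20, counted above already. The calls of each list below stand against these same shares. Plasminogen itself (PLG) had no reads in any library, so RNA for the substrate of PLAU and PLAT was not detected in either line.

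**Figure D3:**
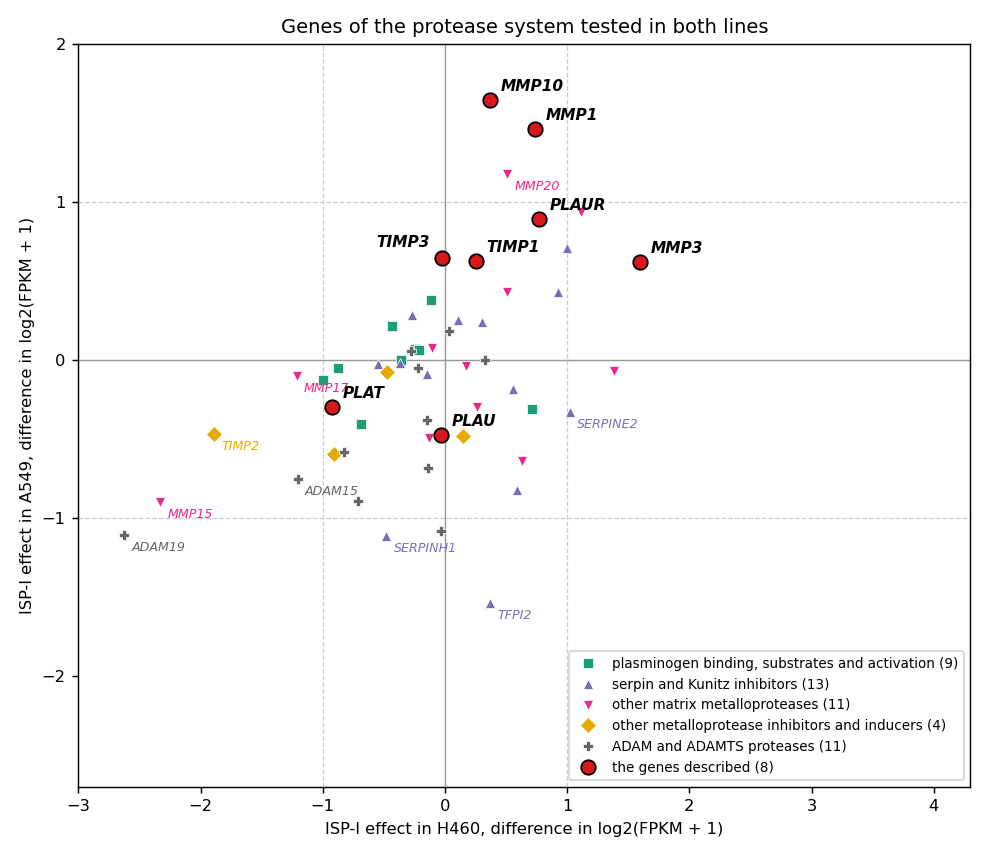
ISP-I effect in H460 (horizontal) against that in A549 (vertical), both as differences in log2(FPKM + 1), for the genes tested in both lines, with the 8 genes described here in red and 5 lists of related genes in other colours. Dashed lines mark a fold of 2. PLAUR, MMP1, MMP3 and MMP10 lie to the upper right, and ADAM19 lies to the lower left at -2.63 in H460 and -1.11 in A549.

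Genes for plasminogen binding and activation had 0 calls at a fold over 2 among 9 tested in H460 and 10 in A549. By limma at an unadjusted p under 0.05 H460 had 1 higher and 6 lower, and A549 had 1 of each, while voom called 1 of each in H460 and 0 in A549. ANXA2 and S100A10, which form a plasminogen-binding complex at the cell surface, had group means of 87.4 to 404.3 and 251.5 to 575.8 FPKM.

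Among serpin and Kunitz inhibitors, 14 were tested in each line. In H460, 1 was called higher and 1 lower, and in A549, 2 were called lower and 0 higher (3 higher at an unadjusted p under 0.05, 1 by voom). SERPINE2, protease nexin-1, which inhibits thrombin and urokinase, rose in H460 from 32.5 to 67.0 FPKM (1.02, limma adjusted p = 5.61e-05). In A549 SERPINE2 fell from 14.2 to 11.1 FPKM (-0.33, limma adjusted p = 0.00383). The serpin SERPINB5 (maspin), of the same SERPINB gene cluster as SERPINB2 on chromosome 18, fell in H460 from 21.4 to 8.51 FPKM (-1.23, limma adjusted p = 2.29e-05). Of the 10 genes of that SERPINB cluster, 6 were tested in H460, of which SERPINB2 was called higher and SERPINB5 lower, and 2 were tested in A549, of which 0 were called (SERPINB8 rose there, by 0.71, and voom called 1). TFPI2, a Kunitz inhibitor of plasmin, fell in A549 from 100.9 to 34.1 FPKM (-1.54, limma adjusted p = 1.15e-06). In H460 it rose from 185.1 to 240.2 FPKM (0.37, limma adjusted p = 0.0486), which missed an adjusted p of 0.05 under 4 alternatives. SERPINH1, a collagen chaperone of the endoplasmic reticulum and not a protease inhibitor, fell in A549 from 39.4 to 17.6 FPKM (-1.11, limma adjusted p = 2.77e-05). It fell in H460 too, from 1.16 to 0.546 FPKM (-0.48, limma adjusted p = 0.00231). The plain ratios were 0.448 in A549 and 0.470 in H460.

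Of other matrix metalloproteases, 12 were tested in H460, with 2 called higher and 2 lower, and 14 in A549, with 1 higher and 0 lower (6 lower at an unadjusted p under 0.05, 2 by voom). The genes called lower in H460 were MMP15 and MMP17. MMP15 went from 10.9 to 1.37 FPKM (-2.33, limma adjusted p = 1.70e-06), and MMP17 from 7.76 to 2.79 FPKM (-1.21, limma adjusted p = 2.47e-05). In A549 MMP15 also fell, from 13.4 to 6.72 FPKM (-0.90, limma adjusted p = 6.73e-05), while MMP17 did not pass (-0.10, limma adjusted p = 0.486). The higher ones, MMP19 and MMP25, were named after their values were seen. In H460 they went from 0.0332 to 1.23 FPKM and from 0.326 to 2.55 FPKM. MMP19 entered the H460 test only through the treated libraries, so it could enter only as higher. The same holds in A549 for MMP20, the 1 gene called higher there, which is counted above already.

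Of the remaining metalloprotease inhibitors and inducers, 4 were tested in each line, and TIMP2 was called lower in H460, from 6.86 to 1.13 FPKM (-1.89, limma adjusted p = 2.03e-06). No gene of this list was called higher in H460 (0 at an unadjusted p under 0.05, 0 by voom) and 0 were called in A549 in either direction, where 3 were lower at an unadjusted p under 0.05 and voom called 1 lower. TIMP2 was at 26.6 and 18.9 FPKM in A549 (-0.47, limma adjusted p = 0.00417). Thus TIMP1 and TIMP3 rose in A549 while TIMP2 fell, and in H460 only TIMP2 of these 3 inhibitors passed limma on FPKM.

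Of ADAM and ADAMTS proteases, 12 were tested in H460, with 1 called higher and 2 lower, and 11 in A549, with 0 higher and 2 lower (1 higher at an unadjusted p under 0.05, 1 by voom). ADAM19 fell in both lines, from 6.51 to 0.215 FPKM in H460 (-2.63, limma adjusted p = 3.60e-07) and from 4.03 to 1.33 FPKM in A549 (-1.11, limma adjusted p = 2.01e-05). ADAM15 fell in H460 from 53.7 to 22.7 FPKM (-1.21, limma adjusted p = 3.96e-05), and in A549 from 16.3 to 9.27 FPKM (-0.75, limma adjusted p = 0.000131). The matrix protease gene ADAMTS6 rose in H460 from 1.11 to 6.35 FPKM (1.77, limma adjusted p = 3.19e-05). The second ADAM-type gene lower in A549 was ADAMTS9, at 3.08 and 0.924 FPKM, named after its values were seen.

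**Figure D4:**
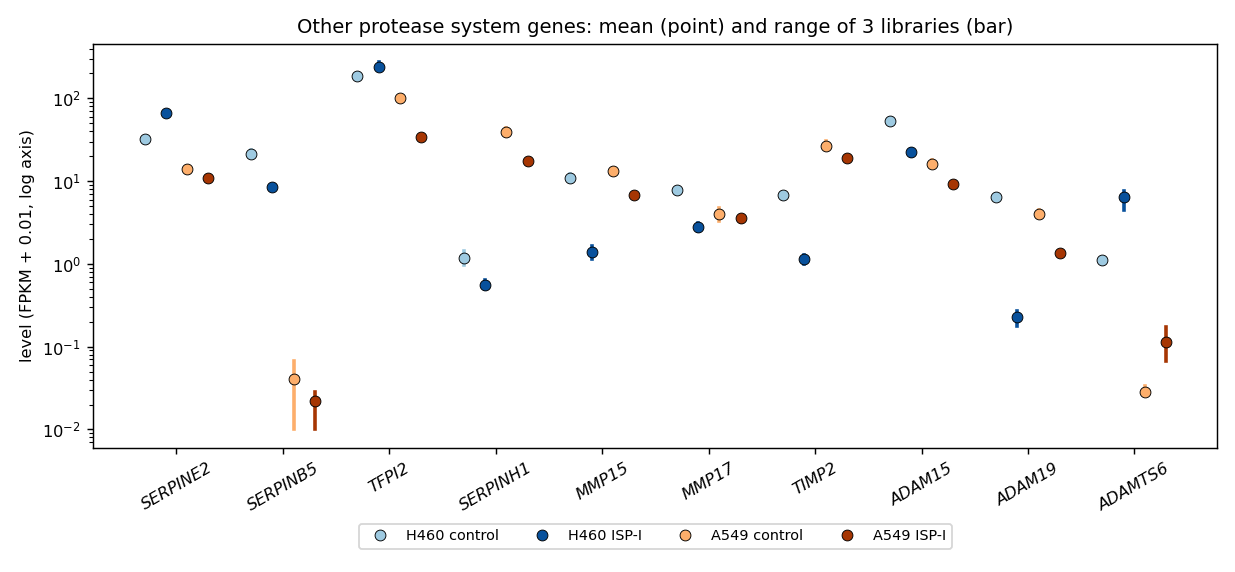
Level of 10 related genes chosen by rule, in FPKM plus 0.01 on a log axis, by line and treatment. Points are means of 3 libraries and bars their range. SERPINE2 in H460 stood at 32.5 FPKM in controls and 67.0 FPKM with ISP-I, and ADAM19 was lower with ISP-I in both lines.

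For the 4 members with a group mean of at least 5 FPKM, the genes most alike across the 12 libraries were sought among 6649 genes by Pearson r of log2(FPKM + 1). These libraries share line and treatment, so the values are a description. NLRP2 and HAS3 were most like PLAU (r of 0.996 and 0.996), both high in A549, with HAS3 at 37.3 FPKM in A549 controls and 1.67 in H460 controls. GYG1 and UBAP1 were most like PLAUR (0.990 and 0.989), with GYG1 at 4.76 FPKM in H460 controls and 8.57 FPKM with ISP-I. NPTX2 and IRX2 were most like SERPINB2 (0.994 and 0.994), at 14.9 and 21.9 FPKM in H460 controls and 0.0149 and 1.34 FPKM in A549 controls. RPS28 and PRCC were most like TIMP1 (0.994 and 0.990).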

How the data were processed

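Total RNA of 12 libraries (H460 and A549, control or ISP-I) was sequenced by the authors with a TruSeq kit. According to their processing notes they used FastQC, HISAT2, HTSeq 0.9.1 and hg38, and they deposited FPKM per gene together with gene length in bases, a column of another kind that is no measurement of a sample. Annotation version, strand setting and treatment of multi-mapping reads are not given in the sources used here. In every library FPKM multiplied by length came out as whole reads for 100% of values (tolerance 0.05 reads), so read counts were recovered. Another 4 lines that were pieces of a broken cell were left out.

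For each line, ISP-I and control libraries were compared by limma 3.58.1 (R 4.3.3) with a mean-variance trend on log2(FPKM + 1), keeping genes whose mean reached 0.1 FPKM, with Benjamini-Hochberg adjustment. The lines were compared within each treatment, and the difference of effects was an interaction in all 12 libraries. The step was tested on simulated data. The members and the gene lists were chosen with earlier results of these data known, and 1 gene of the lists is not reported here. Related genes were named where a list gene was called and reached 5 FPKM in a group, at most 4 per list and line, besides overlapping genes, cluster neighbours and the 2 most alike genes. Alternatives were 0.1 as pseudocount, a required mean of 1 FPKM, no filter on low values, median-of-ratios scaling, quantile normalization, limma voom on reads, all 12 libraries in 1 fit, and leaving out each library. Gene positions are those deposited with the values. Overlapping genes were sought in GENCODE 44 (GRCh38), in which 19895 of the 19973 genes were found. Besides those named above, C10orf55 overlaps PLAU and an lncRNA overlaps TIMP1, both on the opposite strand. On the same strand, RN7SL368P overlaps PLAUR, and a protein-coding gene at 63897174 to 63917490 overlaps SERPINB2. None of these has values in the data, and they were not analysed. The exact interval of a read ratio and the floors cover counting error only, and limma's intervals the spread between libraries.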

Additional observations from a re-analysis of the deposited data

Results flagged for a closer look

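The effect of ISP-I differed between H460 and A549, by the interaction of line and treatment in limma with Benjamini-Hochberg adjustment, for 7 of the 9 genes described. The difference in log2(FPKM + 1), H460 minus A549, was 1.50 for SERPINB2, 0.98 for MMP3 and 0.44 for PLAU. It was -0.63 for PLAT, -0.67 for TIMP3, -0.72 for MMP1 and -1.28 for MMP10. At this adjusted p 18.6% of all genes tested had a larger effect in H460 and 34.7% a smaller one. The value for SERPINB2 rests on a line with 0 control reads and 4 treated reads, where the pseudocount sets the effect near 0. MMP3 had 0 reads in every control library of both lines. Its value is therefore the difference between the treated lines, and a difference in fold was not shown for it.

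Among the related genes, the same test set apart TFPI2 at 1.90, ADAMTS6 at 1.66 and SERPINE2 at 1.35. It also set apart MMP17 at -1.11, SERPINB5 at -1.21, TIMP2 at -1.42, MMP15 at -1.44 and ADAM19 at -1.52. For SERPINB5 and ADAMTS6 the A549 levels were under 0.2 FPKM in every library, so the pseudocount sets their A549 effect near 0. As plain ratios of mean FPKM, ISP-I over control was 5.71 in H460 and 5.61 in A549 for ADAMTS6, and 0.397 and 0.394 for SERPINB5, so no difference in fold was seen for either.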

How the results depend on the processing

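Across the alternatives, 519 of 557 values for the 9 genes kept their direction and their side of an adjusted p of 0.05, 18 lost it, 6 gained it and 14 changed sign. Counts of genes called moved most with the treatment of low values. With a pseudocount of 0.1 FPKM, 4 genes were called higher and 1 lower in H460, 4 higher in A549, 4 higher in H460 against A549 controls, and 2 larger and 3 smaller in the difference of effects. With a required mean of 1 FPKM, 3 rose in H460, 3 rose, 1 fell and 1 was called higher in A549, and 0 were smaller in the difference, since genes under that mean were not tested. Limma voom called 4 higher and 1 lower in H460, 4 higher in A549 and 3 smaller in the difference. Scaling by median-of-ratios or quantiles gave 2 larger in the difference, and quantile normalization 1 lower in treated H460. Leaving out 1 library gave 1 to 2 larger.

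The changes of sign were in values near 0. For PLAU in H460 they were 0.22 (median-of-ratios), 0.075 (quantile) and 0.25 (voom), and leaving out 1 library gave -0.14 to 0.045, the latter without ISP-I library 2. TIMP3 in H460 had 0.0070 (pseudocount 0.1), 0.020 (median-of-ratios) and 0.43 (voom), and -0.13 to 0.10 without 1 library, positive without control library 3 or ISP-I library 3. Between controls it had -0.033 to 0.19, negative without H460 control library 3. TIMP1 in H460 had -0.00159 without ISP-I library 3 and otherwise up to 0.43, and MMP17 in A549 had -0.20 to 0.0045, positive without control library 3. MMP1 between treated lines had 0.058 (quantile), and the PLAUR difference 0.17 (median-of-ratios) and 0.20 (voom). The cause was not tested. Voom gave 0.46 for the SERPINB2 difference (adjusted p = 0.847). The PLAUR difference between controls missed an adjusted p of 0.05 under 8 alternatives, and TFPI2 in H460 under 4. No paired analysis was possible because the table's columns carry no replicate numbers. MMP10 and TIMP3 in H460 rest on 7 to 46 reads per group.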
